A study of Homo sapiens with 60 samples.

Results

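A549 is an established human lung carcinoma line. In this series, RNA was sequenced from 60 A549 libraries after 24 h with 1 of 8 herbal extracts or with vehicle. The libraries described here are the 6 of those 60 that received the ethanol extract of Longan Arillus at 500 µg/mL (high dose) or 100 µg/mL (medium dose). They divide into 4 libraries, replicates 2 and 3 of each dose, and 2 libraries, replicate 1 of each dose. The division was chosen by the expression values of these same libraries, in which replicate 1 had been seen to stand apart, so the differences along it are given as a description, with no test. All 6 carry the same extract, time and cell line, and the labels give all 60 libraries the same batch letter. Other groups used for comparison are Longan Arillus at 20 µg/mL (low dose, 3 libraries), Zizyphi Semen, Liriopis seu Ophiopogonis Tuber and Schisandrae Fructus (ethanol extracts) and Yijin-tang (water extract), each with 3 libraries at 20, 100 and 500 µg/mL, and vehicle (3 libraries). Ranges over sets also use Soshiho-tang (water extract, 20, 100 and 500 µg/mL, replicates 2 and 3) and, with 1 library per dose, the ethanol extracts of set 11, Aucklandiae Radix at 14.8, 74 and 370 µg/mL, then Polygalae Radix with doses of 15.2, 76 and 380 µg/mL. The vehicle is given as 0.1% DMSO in the labels and as 2% in the series' design text and the share of DMSO given with the extracts is not stated. Whether replicates were separate cultures is not given. A p-value here sets a difference against the variation between libraries, and that variation may be technical. The library names also hold a number, called the set here, whose meaning is not stated. Longan and Zizyphi libraries are in set 10, those of Polygalae Radix and Aucklandiae Radix in set 11, Schisandrae and Liriopis in set 9, Soshiho-tang and Yijin-tang in set 8, and the vehicle libraries in set C1.

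An mRNA library is a sample of transcripts that differ widely in length and base composition. Long transcripts depend on intact RNA and on even copying along their length, and stretches rich in G and C or in A and T are copied with different ease in library preparation. Nuclear noncoding RNAs, transcripts that keep introns and the mitochondrially encoded mRNAs are further classes whose share of a library can vary between preparations of the same cells as well as between cell states. In bulk RNA, fewer cells of a type and less RNA per cell cannot be told apart.

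The sequences below show how the transcripts on each side of the division look. Each is the middle 120 bases of the largest coding exon in the GENCODE 29 transcript (GRCh38), read 5′ to 3′, with G and C in capitals. SYNE2, FAT1 and DST, which were lower in replicates 2 and 3, are shown as examples of long transcripts. MAMDC4 and ASIC3, which were higher, are shown as GC-rich ones. SYNE2 lies at chr14:64052547-64052666 (plus strand, exon 48), FAT1 at chr4:186619682-186619801 (minus strand, exon 12) and DST at chr6:56606531-56606650 (minus strand, exon 36). MAMDC4 lies at chr9:136857417-136857536 (plus strand, exon 20) and ASIC3 at chr7:151049093-151049212 (plus strand, exon 1).
SYNE2: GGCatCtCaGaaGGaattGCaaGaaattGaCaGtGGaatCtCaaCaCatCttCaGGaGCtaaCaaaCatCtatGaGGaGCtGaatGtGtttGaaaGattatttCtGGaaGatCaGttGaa
FAT1: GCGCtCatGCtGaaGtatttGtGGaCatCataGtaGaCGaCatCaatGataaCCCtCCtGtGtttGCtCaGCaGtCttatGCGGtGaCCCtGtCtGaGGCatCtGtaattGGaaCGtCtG
DST: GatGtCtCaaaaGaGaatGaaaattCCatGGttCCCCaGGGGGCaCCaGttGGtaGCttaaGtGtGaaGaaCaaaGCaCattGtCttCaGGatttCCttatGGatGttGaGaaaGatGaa
MAMDC4: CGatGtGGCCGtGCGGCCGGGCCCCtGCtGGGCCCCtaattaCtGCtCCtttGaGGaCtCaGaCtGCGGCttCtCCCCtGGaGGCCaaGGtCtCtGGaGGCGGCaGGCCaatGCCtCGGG
ASIC3: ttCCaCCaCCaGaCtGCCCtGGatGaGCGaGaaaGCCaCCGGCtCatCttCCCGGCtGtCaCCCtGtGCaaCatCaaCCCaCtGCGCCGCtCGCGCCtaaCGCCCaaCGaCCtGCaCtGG
G and C made up 38.3%, 47.5% and 41.7% of the stretches of SYNE2, FAT1 and DST, against 67.5% and 63.3% of those of MAMDC4 and ASIC3.

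The 6 libraries held 23.8 and 27.9 M counts (high dose, replicates 2 and 3) and 24.0 and 25.8 M (medium dose, replicates 2 and 3), against 21.9 and 24.4 M in replicate 1. All 10 A549 markers were present in all 6 libraries, from EPCAM at 3.97 to 5.97 CPM (counts of a gene per M counts of its library, where M stands for mega) to ALDH1A1 at 5779 to 5989 CPM. Their summed level was 16310 to 16840 CPM in replicates 2 and 3 and 16420 to 16630 CPM in replicate 1. Of the markers of other cell types, PTPRC and CD3D (leukocytes), VWF (endothelium) and DCN (fibroblasts) were at 0 or under 0.1 CPM. Other members of these lists were measured, with CD68 at 10.98 to 14.99, CD14 at 2.25 to 3.38, COL1A1 at 29.7 to 36.8, THY1 at 6.3 to 7.57 and COL3A1 at 4.4 to 5.34 CPM. The summed levels of fibroblast markers were 42.8 to 49.9 against 42.6 to 44.2 CPM and of leukocyte markers 15.8 to 19.9 against 16.9 to 18.8 CPM. Those of endothelial markers were 0.294 to 0.709 against 0.166 to 0.509 CPM, and of hepatocyte markers 1.08 to 1.42 against 1.08 to 1.16 CPM. Neural markers, mainly TUBB3, SYT1 and SNAP25, summed to 256.1 to 259.2 CPM in replicates 2 and 3, against 260.9 and 276 CPM in replicate 1. The part of these markers in the differences below was not tested. A pair of libraries outside the 6, Longan low replicate 3 and Soshiho-tang medium replicate 3, stood far from all others and are left out of the ranges below. Longan low replicate 3 is given on its own where it matters.

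In replicates 2 and 3, long and AT-rich protein-coding transcripts were lower and a mixed group of GC-rich and noncoding transcripts was higher than in replicate 1. A gene was counted where both libraries lay on the same side of replicate 1 at both doses and the mean difference reached 0.322 log2 units. Of 15896 genes that passed the filter on low counts, 1051 were higher (6.61%) and 1049 were lower (6.6%) in replicates 2 and 3 by this rule. These shares describe the division that was chosen. At the edge of the rule, TMEM147-AS1 and OGT were just inside, with log2 differences of 0.32 and -0.32, and KMT5C and HAVCR1 just outside at the same rounded values. Many of the higher genes had low counts: at a mean of 10 CPM or more, 164 genes were higher and 558 lower.

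The lower side was led by ZBED6, whose product is a transcriptional repressor derived from a transposon. ZBED6 had 2.69 and 0.533 CPM (high) and 3.63 and 0.561 CPM (medium) in replicates 2 and 3, against 31.2 and 31.7 CPM in replicate 1. All 4 libraries were below both others, and replicate 3 was lower than replicate 2 at each dose. The mean log2 difference was -4.47, and the 4 differences ran from -5.67 to -3.10. ZBED6 (chromosome 1, 203795714 to 203854999) shares 96.0% of its exonic bases with other annotated genes, and the strand setting of the counting is not given, so its own level is uncertain. The same caution holds for CCDC144A, with 5.47, 2.95, 6.21 and 3.77 CPM against 25.5 and 24.0 CPM, and for REL, which encodes an NF-kB subunit, with 11.4, 6.15, 11.5 and 5.85 CPM against 41.8 and 39.8 CPM. Exons of other genes cover 58.3% of the bases of CCDC144A and 50.7% of those of REL.

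Several giant genes of the cytoskeleton and cell surface without such overlap followed. SYNE2 encodes nesprin-2, which ties the nucleus to the cytoskeleton. It had 39.1, 30.7, 39.2 and 32.5 CPM in replicates 2 and 3, against 99.7 and 93.2 CPM in replicate 1, a mean log2 difference of -1.45 (range -1.70 to -1.25). The groups did not overlap, and its longest annotated transcript has 21842 bases. FAT1, an atypical cadherin, had 268.2, 217.7, 274.2 and 233.0 CPM against 589.9 and 577.5 CPM (-1.24, range -1.44 to -1.08). DST, which encodes the cytoskeletal linker dystonin, had 139.2, 117.7, 139.1 and 122.0 CPM against 305.2 and 291.6 CPM (-1.21, range -1.37 to -1.07). In these genes too, replicate 3 was the lower of the pair at each dose. NBEAL1 (-2.18), CRYBG3 (-1.32), SMG1 (-1.27), BLTP1 (-1.21), MYCBP2 (-1.20) and ALMS1 (-1.19) complete the 12 genes with the largest decreases at 10 CPM or more. SMG1 is a kinase of nonsense-mediated decay and has near-identical copies on its chromosome, so its value is uncertain. The longest transcripts of the 12 genes had 8686 to 22431 bases.

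The higher side was led by RN7SL2, a 7SL RNA of the signal recognition particle. RN7SL2 had 13.6, 14.8, 15.8 and 12.8 CPM in replicates 2 and 3, against 1.44 and 1.86 CPM in replicate 1, a mean log2 difference of 3.06 (range 2.72 to 3.29). Its paralog RN7SL1 had 12.3, 13.6, 12.3 and 11.9 CPM against 2.64 and 3.15 CPM. All 4 libraries were above both others for each of these RNAs. Reads can be shared between these close paralogs, so their separate values are uncertain. The antisense gene CERS6-AS1 had 17.5, 25.2, 13.5 and 25.8 CPM against 6.02 and 2.69 CPM (2.27, range 1.53 to 3.22), and PAPPA-AS1 had 28.2, 38.6, 24.3 and 39.9 CPM against 14.1 and 15.4 CPM (1.12, range 0.65 to 1.45). Exons of other genes cover 97.5% and 100% of their bases, so both are uncertain without a known strand setting.

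Among protein-coding genes, ASIC3, an acid-sensing ion channel, had 12.95, 14.04, 13.85 and 16.8 CPM in replicates 2 and 3, against 7.96 and 7.66 CPM in replicate 1 (0.87, range 0.70 to 1.13). MAMDC4 had 11.9, 12.5, 11.1 and 14.6 CPM against 6.29 and 8.61 CPM (0.75, range 0.36 to 0.98). In both genes the groups did not overlap. The other 6 names among the 12 largest increases are uncertain because reads can be shared: the paralogs NPIPB12 (0.84), NPIPB4 (0.84) and NPIPB3 (0.79), the duplicated gene SLX1B (0.80), and the readthrough genes RTEL1-TNFRSF6B (1.06) and MSH5-SAPCD1 (0.78). ZNG1F (1.13), which also belongs to a family of close copies, varied most among the 4 libraries, with differences from 0.07 to 2.00.

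**Figure D1:**
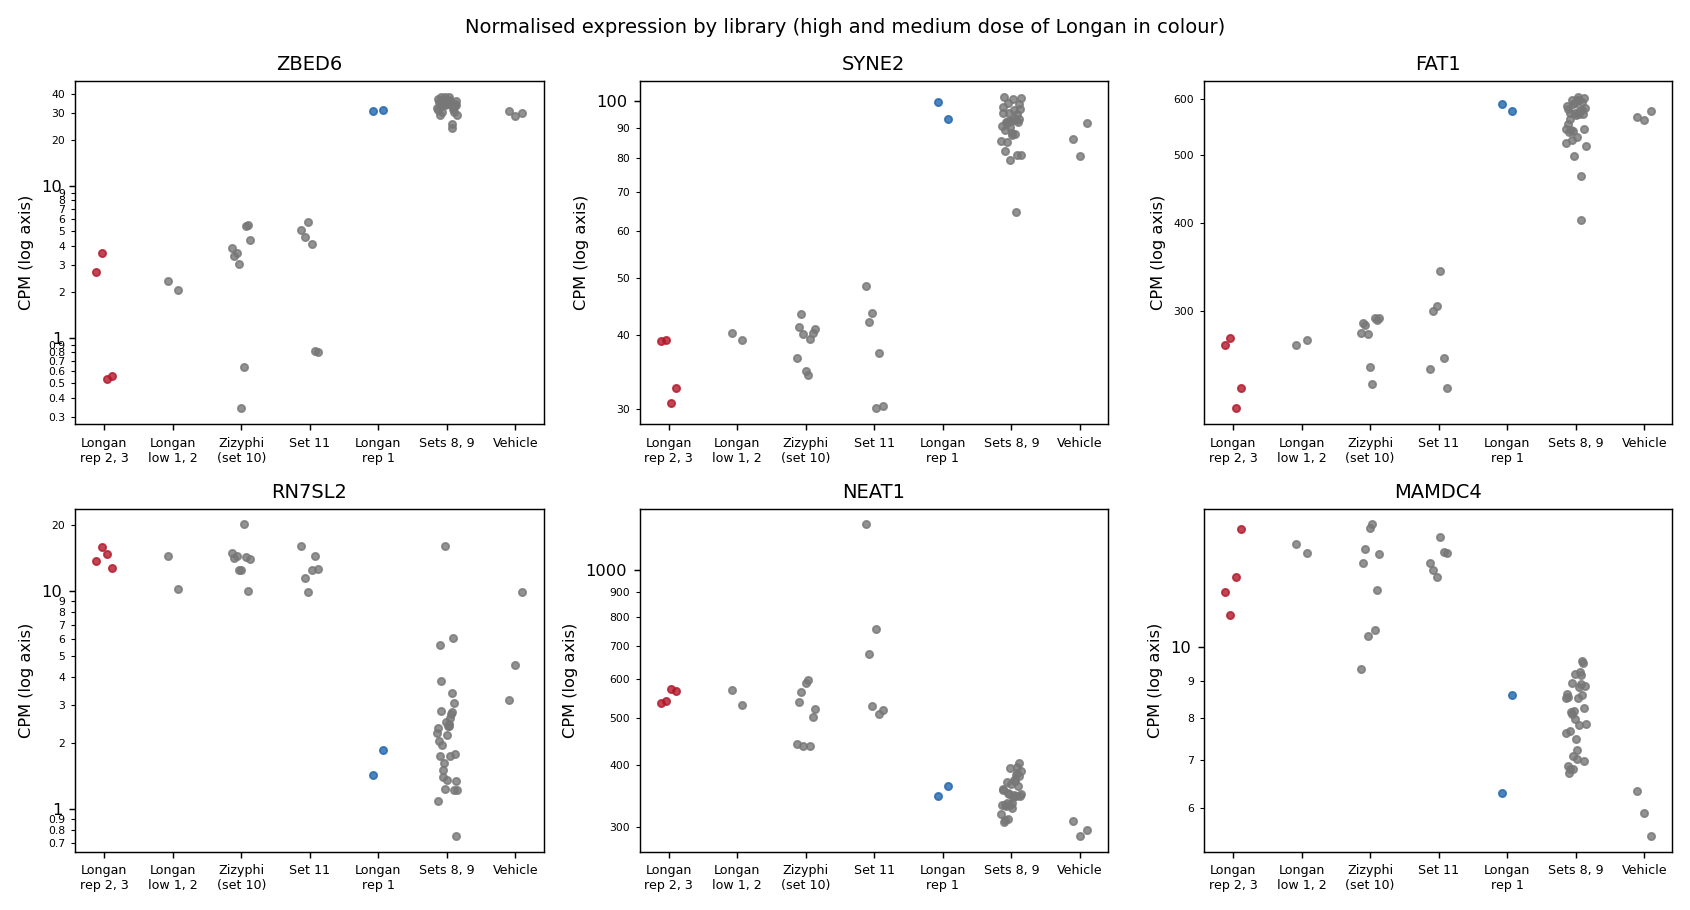
Normalised expression (CPM, log axis) of 6 genes in 58 libraries, one point per library: Longan high and medium replicates 2 and 3 (red), Longan low replicates 1 and 2, Zizyphi Semen, set 11, Longan high and medium replicate 1 (blue), the extracts of sets 8 and 9, and vehicle. SYNE2 lies at 30.7 to 39.2 CPM in the red points and at 93.2 and 99.7 CPM in the blue ones. For ZBED6, SYNE2, FAT1 and NEAT1 the blue points lie inside the range of sets C1, 8 and 9. They lie above all vehicle points for SYNE2 (80.6 to 91.5 CPM in vehicle) and NEAT1 (286.9 to 308.7 CPM in vehicle).

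Transcript length gave an ordered picture over protein-coding genes of at least 5 CPM. Of these 10463 genes, 1.98% were higher and 5.83% lower by the rule above, the background for the shares in classes of length and GC. The median log2 difference, replicates 2 and 3 minus replicate 1, was 0.04 for longest transcripts under 2 kb, 0.02 for 2 to 4 kb, -0.02 for 4 to 6 kb, -0.09 for 6 to 8 kb, -0.17 for 8 to 10 kb and -0.30 for 10 to 15 kb. It was -0.18 in the 89 genes of 15 kb and over. By the same rule, 48.5% of the 394 genes of 10 to 15 kb were lower, against 0.255% of the 1568 genes under 2 kb. Over 10462 genes the slope was -0.0967 log2 units per doubling of length, and lay between -0.137 and -0.0692 in the 4 single differences. With the median annotated transcript length in place of the longest, it was -0.042.

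Coding length separated the genes further than total length. Of 131 genes with a coding sequence of 8 kb and over, 66.4% were lower and the median difference was -0.63. With a coding sequence under 1 kb, 0.831% of 3129 genes were lower and the median was 0.02. Among genes with a coding sequence under 2 kb, those with a 3′ untranslated region of 6 kb and over had a median of -0.09 and 20.6% of 277 lower, against 0.03 and 0.517% of 4449 where it was under 1.5 kb. Lower values thus went with a long untranslated region as well as with a long coding sequence.

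GC content ran the other way. The median difference was -0.08 in the 1779 genes under 40% GC, with 14.6% lower, and 0.06 in the 1431 genes at 60% GC and over, with 5.87% higher and 0 lower. The slope was 0.0838 log2 units per 10 percentage points of GC (0.0686 to 0.0948 in the 4 differences). Length and GC are linked among genes. Within the genes of 10 kb and over, the median was -0.36 below 45% GC (282 genes) and -0.18 at 45% GC and over (201 genes). Among genes under 4 kb it was 0.01 (1621 genes) and 0.04 (3864 genes). The protein-coding genes called lower had a median longest transcript of 8842 bases, 40.8% GC and 19 exons. Those called higher had 3332 bases, 58.5% GC and 10 exons, and those called neither had 3694 bases, 48.4% GC and 8 exons.

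**Figure D2:**
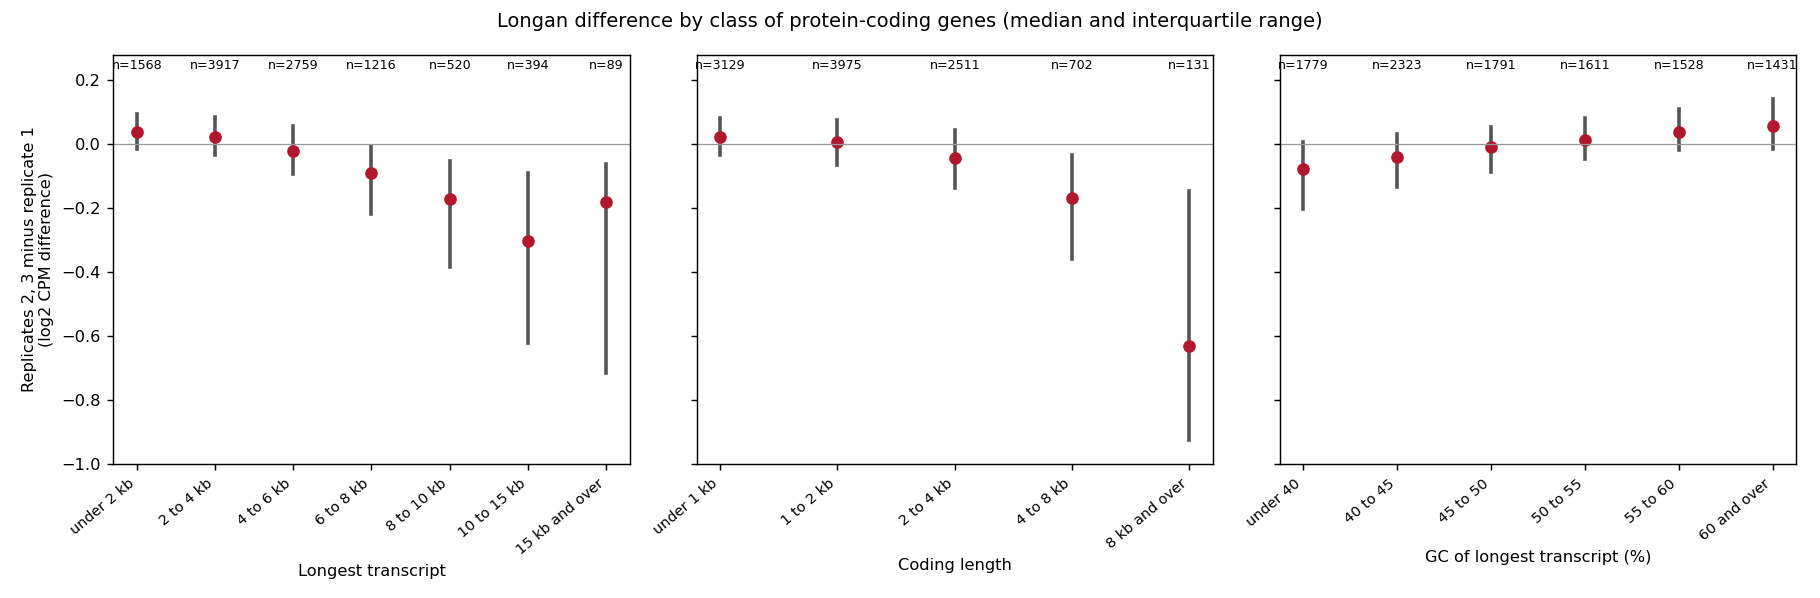
Median (red point) and interquartile range (line) of the log2 CPM difference, Longan replicates 2 and 3 minus replicate 1, for protein-coding genes of at least 5 CPM in classes of longest transcript, coding length and GC content; n is the number of genes. The median falls to -0.63 in the 131 genes with a coding length of 8 kb and over and reaches 0.06 at 60% GC and over.

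Gene type separated the 2 directions as well. Of 586 long intergenic RNAs, 19.1% were higher and 6.31% lower, and of 829 antisense RNAs 18.9% were higher and 7.48% lower, beside 4.11% and 6.16% of 13125 protein-coding genes. Many of these RNAs have low counts, where the spread of a difference is wide. Over the 10463 protein-coding genes of at least 5 CPM, 1.98% were higher and 5.83% lower. Those for which 40% or more of the annotated transcripts are retained-intron forms were higher in 4.5% and lower in 5.66% of 1378 cases. With no such transcript the shares were 1.24% higher and 5.87% lower of 4125 genes. The counts are per gene and do not measure retained introns themselves. The longest annotated length alone did not order the nuclear noncoding RNAs. NEAT1, the scaffold RNA of paraspeckles, has a longest annotated transcript of 22743 bases. It had 535.5, 572.5, 540.8 and 567.0 CPM in replicates 2 and 3, against 345.7 and 362.4 CPM in replicate 1. MALAT1, a nuclear speckle RNA of 8708 bases, had 828.6, 949.0, 843.4 and 907.9 CPM against 588.4 and 626.4 CPM. Both were higher without overlap, by 0.65 and 0.54 log2 units, although their longest annotated transcripts are as long as those of many lower genes. Counts per gene do not show which of their transcripts, long or short, were measured. Of the 10 nuclear noncoding RNAs measured, 2 were higher and 0 lower.

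The mitochondrially encoded mRNAs, which encode subunits of the respiratory chain and ATP synthase, moved less evenly. Their share of all counts was 11.97% and 11.32% (high) and 12.2% and 15.1% (medium) in replicates 2 and 3, against 10.8% and 10.6% in replicate 1. All 4 libraries were above both others, but medium replicate 3 stood well above the rest. Of the 13 mRNAs, 3 were higher by the rule (23.1%) and 0 lower: MT-ND6 (0.45), MT-ND3 (0.39) and MT-ATP6 (0.33). The background over protein-coding genes of at least 5 CPM was 1.98% higher and 5.83% lower. MT-ND6, the one mRNA encoded on the strand opposite to the other 12, had 861.1, 960.6, 983.9 and 1422 CPM against 750.3 and 765.5 CPM. MT-CO1 had 30280, 28090, 30220 and 38360 CPM against 25280 and 25360 CPM, while MT-CYB had 6822, 6463, 7207 and 8613 CPM against 7045 and 7065 CPM, with the groups overlapping. The median over the 13 mRNAs of the mean difference was 0.24, and it was 0.06 at the high dose and 0.41 at the medium dose, beside 0.01 over all genes. Nuclear-encoded subunits of oxidative phosphorylation had a median of 0.03 (1 of 79 higher, 0 lower) and mitochondrial ribosomal proteins 0.02 (0 of 77 either way). Beside the background of 1.98% higher, the counts of higher members do not set these 2 lists apart.

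**Figure D3:**
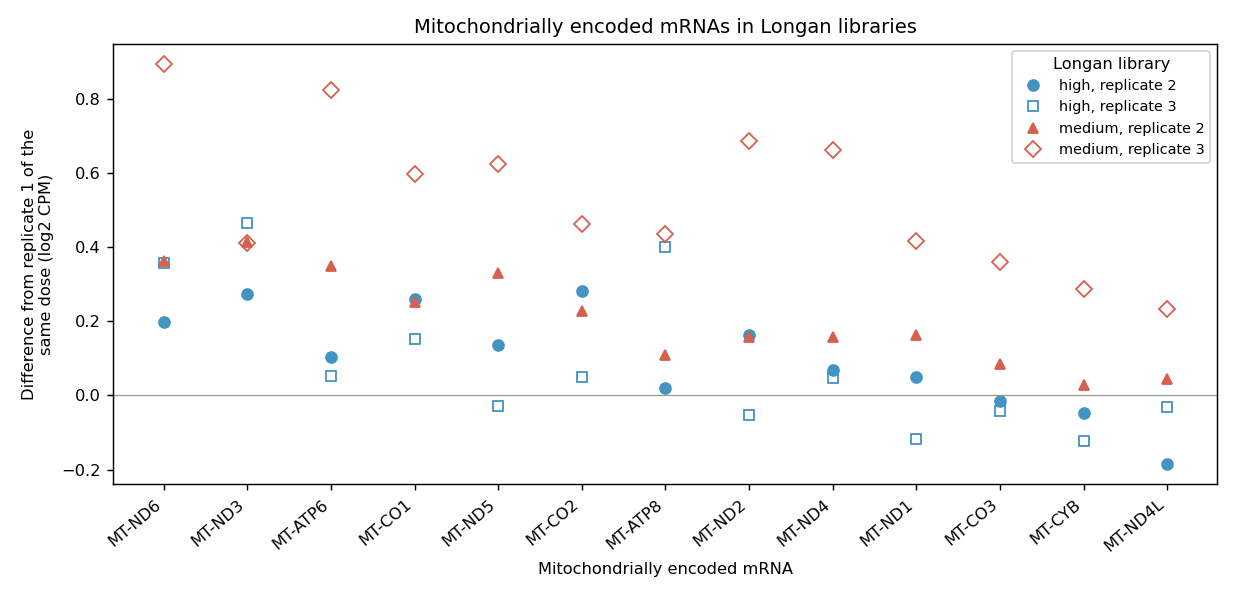
Difference in log2 CPM of each of the 13 mitochondrially encoded mRNAs between a Longan library and replicate 1 of the same dose, one symbol per library. Medium replicate 3 is the highest symbol for 12 mRNAs, and the high-dose symbols lie on both sides of 0.

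Most gene lists of cell state held few members counted either way. The background was 6.61% higher and 6.6% lower over all genes. Over protein-coding genes of at least 5 CPM, a closer background for these lists, it was 1.98% higher and 5.83% lower. Beside the latter, few or 0 higher members do not set a list apart. The medians were -0.01 for the ATF4 stress response (0 of 29 higher, 1 lower), 0.05 for heat shock proteins (0 of 20 either way), 0 for p53 targets (1 of 24 higher, 0 lower), 0.01 for hypoxia and glycolysis (1 of 30 each way), -0.02 for DNA replication (0 of 30 either way) and 0 for cytosolic ribosomal proteins (0 of 81 either way). In the list of histones 1 of 25 was higher and 3 were lower, of immediate early genes 2 of 23 and 1, and of zinc finger genes 22 of 418 and 28. Cholesterol synthesis, lysosome and proteasome lists had 0 calls in 23, 23 and 37 genes. The ATF4 member that was lower is SLC7A11, the cystine transporter, whose longest transcript has 9645 bases. It had 316.5, 286.7, 324.1 and 264.5 CPM against 536.4 and 525.9 CPM, a mean log2 difference of -0.84.

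The mitosis and the collagen lists held more lower members, and those named have long transcripts. In the mitosis list 4 of 30 were lower (13.3%) and 0 higher. ASPM, a spindle pole protein, had 111.2, 103.6, 118.3 and 104.3 CPM against 208.8 and 206.6 CPM (-0.93). MKI67, the proliferation marker Ki-67, had 571.6, 443.5, 613.5 and 495.3 CPM against 893.5 and 903.5 CPM (-0.77). CENPF (-0.78) and CENPE (-0.48), kinetochore proteins, were lower too, and the 4 transcripts have 8612 to 12678 bases. The median of the whole list was -0.02. In the collagen and basement membrane list 5 of 19 were lower and 1 higher, among them COL12A1 (-0.74), the fibrillins FBN2 (-0.63) and FBN1 (-0.60) and the laminin chain LAMA3 (-0.39), with transcripts of 10661 to 11756 bases. Whether transcript length or cell state accounts for these members was not tested.

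Set beside 46 other libraries, the 2 sides lay nearest to different sets. Set 11 was not part of this measure. The measure was the median absolute log2 difference over 11009 genes between a Longan library and each other library. High replicates 2 and 3 had medians of 0.0708 and 0.0850 to the 11 other libraries of set 10 (Zizyphi Semen and Longan low replicates 1 and 2) and of 0.0990 and 0.1113 to 35 libraries of sets C1, 8 and 9. Medium replicates 2 and 3 had 0.0681 and 0.0754 to set 10 and 0.1002 and 0.1235 to the others. Replicate 1 was the reverse, at 0.0980 (high) and 0.0926 (medium) to set 10 and 0.0746 and 0.0731 to sets C1, 8 and 9. Within a group, replicate 2 lay 0.0660 (high) and 0.0698 (medium) from replicate 3 and 0.0916 and 0.0863 from replicate 1. Replicate 3 lay 0.1052 (high) and 0.1071 (medium) from replicate 1. In the other groups with 3 replicates, apart from Longan low, the distance between any 2 replicates was 0.0520 to 0.0953.

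Set against the ranges of these sets, the leading lower genes were apart more often than the leading higher ones. These genes were picked by the Longan difference, so their positions describe them and do not place the libraries. FAT1 ran from 235.8 to 292.9 CPM in the rest of set 10 and from 404.1 to 605.2 CPM in sets C1, 8 and 9. For all 12 leading lower genes, both replicate 1 libraries fell inside the range of sets C1, 8 and 9, none of the 4 replicate 2 and 3 libraries did, and the ranges of the 2 sets of libraries did not overlap. All 4 libraries of replicates 2 and 3 lay inside the narrower range of the rest of set 10 for 5 of these genes. Of the 12 leading higher genes, replicate 1 was inside the range of sets C1, 8 and 9 for 11, replicates 2 and 3 overlapped that range for 5, and the ranges of the 2 sets were apart for 5. Non-overlap of the 2 sets was found in 3.56% of all 15896 genes. Over the 1049 lower genes it was 31.6%, and over the 1051 higher genes 9.61%. Replicate 1 lay inside the range of sets C1, 8 and 9 for 87.4% of the lower and 86.8% of the higher genes, and inside that of the rest of set 10 for 15.4% and 22.8%. Replicates 2 and 3 lay inside the range of the rest of set 10 for 45.2% of the lower and 53.4% of the higher genes, and inside that of sets C1, 8 and 9 for 23% and 34.9%. The range of the rest of set 10 comes from fewer libraries and is narrower. The inside-range shares were computed for the called genes only, with no share over all genes beside them. They ask for 2 libraries on the replicate 1 side and for 4 on the other. They describe these genes and cannot be read as a placing of the libraries. ZBED6 in Longan low was 2.34 and 2.06 CPM in replicates 1 and 2 and 6.21 CPM in the outlying replicate 3, below the 28.5 to 31.2 CPM of vehicle.

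The mitochondrial share followed the same division with more overlap. It was 11.2% to 13.5% in the rest of set 10 and 8.06% to 12.3% in sets C1, 8 and 9, where vehicle had 8.60% to 8.88%. The length slope of single libraries, relative to the median library, was -0.109 to -0.049 in Longan replicates 2 and 3 and 0.0205 to 0.028 in replicate 1. It was -0.0787 to -0.0113 in the rest of set 10 and -0.0579 to 0.0457 in sets C1, 8 and 9. In set 11, 6 libraries of single-replicate extracts, ZBED6 was 0.807 to 5.78 CPM and FAT1 233.0 to 341.4 CPM. The length slope there ran from -0.1002 to 0.1244, with Polygalae Radix high at the upper end. REL in set 11 was 6.74 to 29.25 CPM, which overlaps the 25.27 to 43.7 CPM of sets C1, 8 and 9.

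A comparison without the 6 Longan libraries was made after these ranges had been seen. Its libraries are part of those ranges, so its p-values describe the difference between the sets and are no independent support for the Longan division. It set Zizyphi Semen low (set 10, 3 libraries) against the mean of the low doses of Yijin-tang, Liriopis and Schisandrae (sets 8 and 9, 9 libraries), with edgeR's quasi-likelihood test and Benjamini-Hochberg adjustment over all genes. The extract and the set cannot be told apart in it. Of 16408 genes, 2096 were higher (12.8%) and 2246 lower (13.7%) in Zizyphi low. Of the 1045 genes lower in Longan replicates 2 and 3 that were tested, 687 were lower here too (65.7%) and 2 were higher. Of the 1031 higher genes tested, 479 were higher (46.5%) and 0 lower. The shared genes made up 30.6% of all genes lower and 22.9% of all genes higher in Zizyphi low. Across 15825 genes the 2 differences correlated with r = 0.609, a description in which genes are not independent.

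All 12 leading lower genes, whose set ranges were already apart, were also lower in that comparison. ZBED6 had 3.62, 0.639 and 4.41 CPM in Zizyphi low and 29.3 to 38.2 CPM (median 34.4) in the 9 others. Its log2 fold change was -3.49 (SE 0.275, edgeR adjusted p = 2.82e-05), and the groups did not overlap. SYNE2 had 43.4, 34.2 and 41.0 CPM against 79.4 to 98.5 CPM (median 92.7), with -1.18 (SE 0.0925, edgeR adjusted p = 1.79e-05). NBEAL1, REL and CCDC144A fell by 2.19, 1.72 and 2.13 on the log2 scale.

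On the higher side 10 of the 12 leading genes were called, of which 3 lost the call under an alternative. RN7SL2 had 14.4, 20.2 and 14.1 CPM in Zizyphi low against 1.09 to 6.08 CPM (median 1.96) in the others, a log2 fold change of 2.87 (SE 0.328, edgeR adjusted p = 0.000263). With vehicle in place of the other low doses its adjusted p was 0.0823, and 1 library of set 8, Yijin-tang medium replicate 3, reached 16.0 CPM. MAMDC4 had 13.7, 14.8 and 13.5 CPM against 7.48 to 9.57 CPM (median 8.25), with 0.73 (SE 0.0684, edgeR adjusted p = 1.29e-08). SLX1B (0.50, adjusted p = 0.143) and ZNG1F (0.43, adjusted p = 0.407) did not pass in edgeR. RTEL1-TNFRSF6B (0.58, edgeR adjusted p = 0.0106) had 0.0525 without Zizyphi low replicate 2. NPIPB3 (0.84, edgeR adjusted p = 0.00234) did not pass with medium doses in place of low ones or against vehicle, with adjusted p up to 0.336. NEAT1 was higher by 0.64 (SE 0.0492, adjusted p = 3.23e-06) and MALAT1 by 0.64 (SE 0.0323, adjusted p = 2.45e-11).

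By the rule for named genes, the largest changes in Zizyphi low at 10 CPM or more were TUBA1B-AS1, NPIPB5, MROH6, PAPPA-AS1 and NPIPB3 upward and ZBED6, NBEAL1, CCDC144A, REL and SYNE2 downward. NPIPB5 had a log2 fold change of 1.05 and MROH6 of 0.95, and in the Longan division they differed by 0.67 and 0.73. TUBA1B-AS1 rose by 1.52 (SE 0.366, edgeR adjusted p = 0.0153). Its adjusted p was up to 0.19 over the alternatives, and the call was lost without Zizyphi low replicate 3 and against vehicle. In the Longan division its 4 differences ran from -0.34 to 1.28, and it was not counted.

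In Zizyphi low too, long transcripts had the lowest medians. The median log2 fold change was 0 for longest transcripts under 2 kb (14.6% lower), -0.13 for 8 to 10 kb (53.6% lower) and -0.22 for 10 to 15 kb (64.7% lower), beside 14% higher and 19% lower over the 10464 genes in these classes. The slope was -0.0618 per doubling of length, and 0.0541 per 10 percentage points of GC. ASPM (-0.66), CENPF (-0.54), MKI67 (-0.51) and CENPE (-0.32) were lower here as well, within a mitosis list of 7 higher and 8 lower of 30. Of the 13 mitochondrially encoded mRNAs, MT-CO1 (0.45), MT-ND6 (0.44), MT-CO2 (0.40) and MT-ND5 (0.38) were higher and 0 lower. Nuclear-encoded subunits of oxidative phosphorylation had 5 of 79 higher and 27 lower, and cytosolic ribosomal proteins 10 of 82 higher and 38 lower (median -0.07), lists that had 0 lower members in the Longan division. CLK kinases and SR splicing factors had 9 of 20 higher and 3 lower. Without Zizyphi low replicate 2 or replicate 3, MT-ND6 and MT-ND5 did not pass, with adjusted p up to 0.101 and 0.0845.

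**Figure D4:**
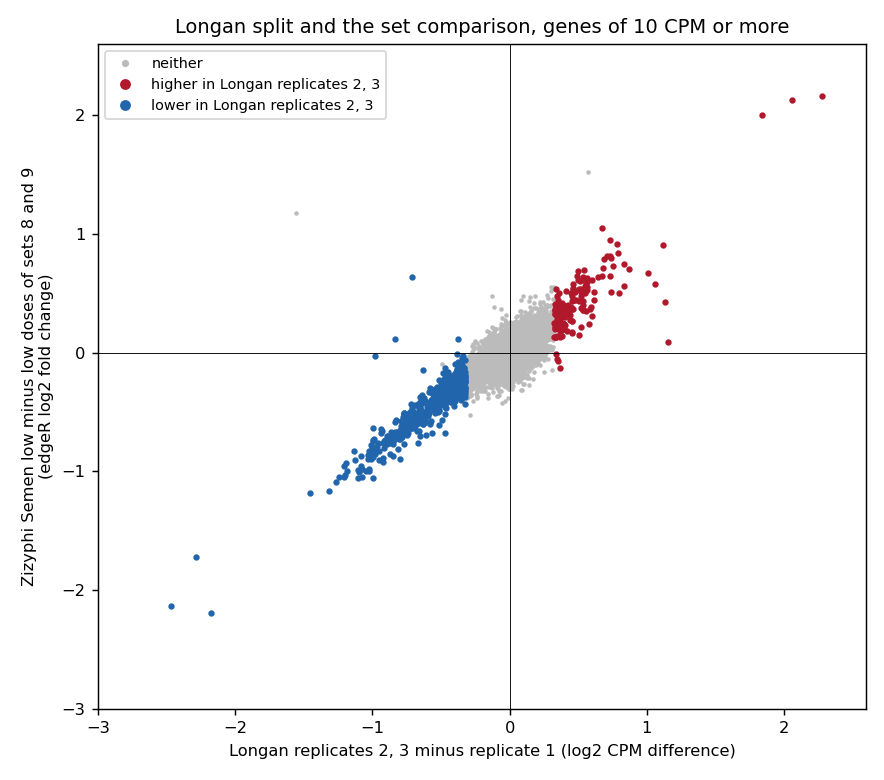
Log2 difference in the Longan division (horizontal) against the log2 fold change of Zizyphi Semen low over the low doses of sets 8 and 9 (vertical), one point per gene of 10 CPM or more (9468 genes, of which 2 lie outside the axes). Genes higher in Longan replicates 2 and 3 are red, lower ones blue. ZBED6 is one of the points outside the axes. Most coloured points lie in the quadrants where both differences have the same sign.

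The same division by replicate number in other extracts gave fewer genes. By the rule used for Longan high and medium (6.61% higher and 6.6% lower), 1.94% and 1.8% of genes were higher and lower in Zizyphi Semen, 1.69% and 1.75% in Liriopis, 1.85% and 1.85% in Schisandrae, and 2.08% and 1.55% in Yijin-tang. Differences at the high and the medium dose correlated with r = 0.469 across genes in Longan and 0.0085, -0.0178, 0.0266 and 0.102 in the other extracts in that order. The Longan division was chosen because replicate 1 stood apart in its libraries, so that choice raises its shares and r. Replicate 1 was not picked this way in the other extracts, so the values are not a like comparison. By median absolute log2 difference, Schisandrae replicate 3 lay nearer to replicate 1 (0.0607 high, 0.0571 medium) than to replicate 2 (0.0882 and 0.0866). A division at replicate 1 does not capture this. The libraries of the other extracts were not used to choose the division, so it could be tested there over 3 doses, with 6 libraries against 3. The edgeR test called 0 of 16203 genes in Zizyphi Semen, 0 of 16331 in Schisandrae and 0 of 16086 in Yijin-tang. At an unadjusted p under 0.05 there were 896, 916 and 876 genes, and DESeq2 called 4, 1 and 1. In Liriopis 1 of 16084 genes was called (0.00622%), AC015674.1 at a mean of 0.84 CPM. In Yijin-tang, 24 genes were called with the high and medium doses only and 29 without low replicate 1.

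**Figure D5:**
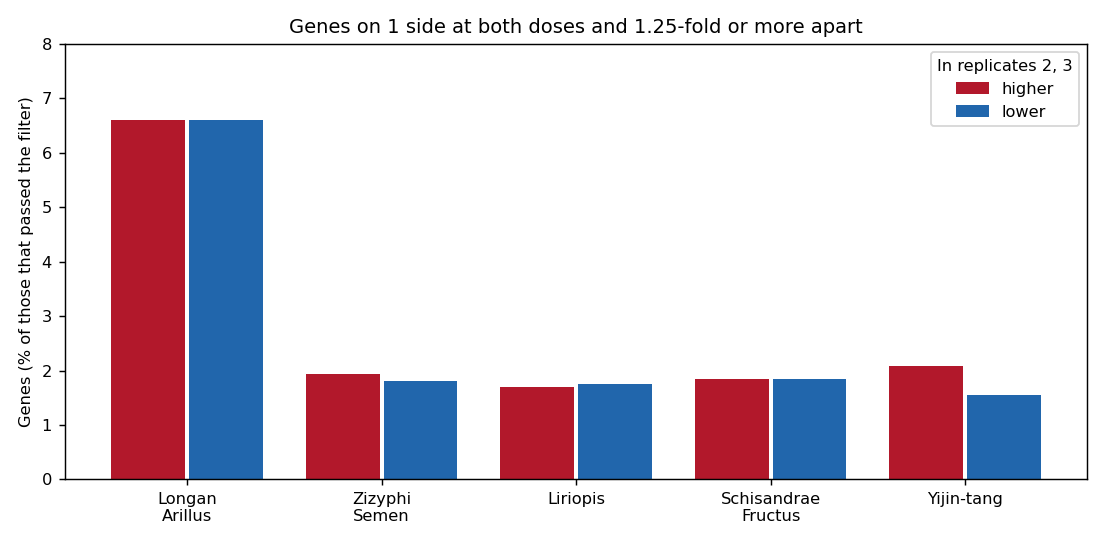
Share of genes (percent of those that passed the filter in each extract) that lay on 1 side of replicate 1 at both doses and differed by at least 0.322 log2 units, higher (red) and lower (blue) in replicates 2 and 3. Longan Arillus has 6.61% and 6.6%, and the other 4 extracts have 1.55% to 2.08%. The division was chosen from the Longan values.

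The mitochondrial share was compared by replicate number in those extracts as well. It averaged 12.9% in replicates 2 and 3 and 12.4% in replicate 1 of Zizyphi Semen, a difference of 0.487 percentage points (p = 0.296, exact permutation test within doses, two-sided). The differences were 0.433 in Liriopis, 0.271 in Schisandrae and -0.599 in Yijin-tang, with exact p = 0.63, 0.667 and 0.333. Adjusted over the 4 extracts, p was 0.666 or 0.667 in each exact permutation test, and the smallest p the design allows is 0.037. For 1 extract alone that becomes 0.148 after adjustment over 4, or 0.444 over the family of 12 with the length and GC slopes, so these exact tests could not pass for a single extract and do not show that the values were alike. The slopes had adjusted p from 0.849 to 0.963 in that family. By the measure used for Longan, the length slope of replicates 2 and 3 minus replicate 1 was 0.0389 in Yijin-tang, with all 4 differences above 0 (0.0288 to 0.0493), opposite in sign to that of Longan. It was -0.00713 in Zizyphi Semen, 0.00143 in Liriopis and -0.0281 in Schisandrae, each with differences on both sides of 0.

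The division bears on the dose comparison within Longan. High against medium dose, 3 libraries each, gave 0 of 15896 genes in edgeR (461 at an unadjusted p under 0.05), and 2 in DESeq2. Deviations from the dose means correlated across genes at 0.798 for the replicate 1 libraries of both doses, 0.133 for replicate 2 and 0.526 for replicate 3. The value for replicate 1 follows in part from the choice of the division. Across numbers, high replicate 2 with medium replicate 3 gave 0.438 and high replicate 3 with medium replicate 2 gave 0.365, so replicate 2 did not correlate best with its own number. With the replicate number as a block edgeR called 9 genes (0.0566%). With replicate 1 against 2 and 3 as a 2-level factor it called 2 (0.0126%), NPIPB3 and NPTX1. NPTX1, neuronal pentraxin 1, had 268.2, 265.9 and 269.1 CPM at the high dose against 311.6, 308.7 and 321.3 CPM at the medium dose. The groups did not overlap. Its log2 fold change was -0.24 in all 3 fits, and its edgeR adjusted p was 0.00134 with the block, 0.0233 with the 2-level factor and 0.681 with neither. The 2-level factor was chosen from the values of these same libraries, and the block contains it. The adjusted p-values and calls of both fits are therefore a description and not valid tests of dose.

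The other genes called with the block are named here after their values were seen. SLC2A3, a glucose transporter (-0.28), NR4A1, an immediate early nuclear receptor (-0.28), the imprinted noncoding RNA H19 (-0.25) and SAMD11 (-0.26) were lower at the high dose. HMOX1, haem oxygenase 1, was higher, with 172.7, 171.5 and 168.7 CPM at the high dose against 155.6, 151.1 and 137.4 CPM at the medium dose (0.20, adjusted p = 0.0252 with the block). NPIPB3 had 6.94, 11.4 and 13.5 CPM at the high dose against 12.1, 20.1 and 21.0 CPM at the medium dose, so that replicate 1 was the lowest at each. AP002373.1 and TGFB2-OT1 had means under 1 CPM.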

How the data were processed

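RNA of A549 cells was measured in 60 libraries. Per the labels' protocols, mRNA was prepared with a directional kit and read as 100 bp pairs. Per the submitters' processing notes, RSEM 1.3.3, the STAR 2.7.3a aligner and GRCh38 were used, with Trim Galore 0.6.5 and FastQC 0.11.9. No source used here gives the annotation release or the strand setting. The authors deposited expected counts per gene for 60675 identifiers, not scaled for depth or length. They were rounded to whole numbers, and totals were 18.0 to 33.8 M counts per library. CPM values use TMM factors over all 60 libraries, and log2 differences a prior count of 2. Lengths, GC content and coordinates are from GENCODE 29. Total length and GC content of a gene are those of its longest transcript. Coding and 3′ untranslated lengths, and the sequences shown with their coordinates, are from the protein-coding transcript with the longest coding sequence. The retained-intron share is that of a gene's annotated transcripts.

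Genes passed edgeR's filterByExpr. Tests used edgeR 4.0.16 (quasi-likelihood, robust) in R 4.3.3 with a threshold of adjusted p 0.05. DESeq2 1.42.0, other scalings, filters and left-out libraries were alternatives. On simulated counts for Longan high against medium, 64, 77 and 59 planted changes of 1.5-, 2- and 4-fold were all recovered, with 12 false calls. For Zizyphi low, 75, 64 and 61 were all recovered, with 14 false calls. For Zizyphi by replicate number, 76, 58 and 66 were all recovered, with 7 false calls. Named genes are the 12 with the largest mean difference in each direction at 10 CPM or more, up to 4 per list in the direction of its median, and the 5 largest called changes each way in a test. Others are named as chosen after their values were seen. These include RN7SL1, and HMOX1 and its neighbours in the dose comparison. The members, lists and the rule were chosen with earlier results of these data known. The comparison of Zizyphi low was added after seeing the data. Deviations of same-numbered Longan replicates from their dose means correlated at 0.798, 0.133 and 0.526 for replicates 1, 2 and 3, all over 0.1. The block fit is therefore given beside the dose result, with the correlations across numbers. Replicate 1 had been seen to stand apart, so its 0.798 follows in part from that choice and is no independent support for the block.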

Additional observations from a re-analysis of the deposited data

How the results depend on the processing

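The counts of 1051 higher and 1049 lower Longan genes stayed within 1.5-fold under other scalings and a prior count of 0.5. They were 1950 and 2072 with no filter beyond 1 count, 164 and 558 at a mean of 10 CPM, and 434 and 419 at 1.5-fold. The high dose alone gave 1594 higher genes. Without replicate 2 or 3 the counts were 1207 to 1478 higher and 1049 to 1404 lower, the length slope -0.113 to -0.0805, the GC slope 0.0766 to 0.091, and the mean over libraries of the mitochondrial median 0.133 to 0.254 (0.194 with all). The length slope was -0.042 with median transcript lengths. The mitochondrial share difference was -0.046 points in Zizyphi Semen with high and medium doses only, -0.219 in Schisandrae without the medium dose and 0.119 in Yijin-tang without the high dose. The causes were not tested.

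In the tests by replicate number, DESeq2 called 4 genes in Zizyphi Semen, 2 in Liriopis, 1 in Schisandrae and 1 in Yijin-tang. With no filter beyond 1 count, edgeR called 40, 44, 61 and 33 in that order. High and medium doses only gave 1 in Zizyphi Semen and 24 in Yijin-tang, and Liriopis had 0 with no dose term. Leaving out each library gave 0 to 4, 0 to 12, 0 to 4 and 0 to 29. The 29 came without Yijin-tang low replicate 1.

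For Longan high against medium, the replicate block gave 9 genes, the 2-level factor 2, DESeq2 2, no filter 5, replicates 2 and 3 only 1, and leaving out each library 0. For Zizyphi low, 4342 genes were called, 3272 with DESeq2, 4280 with the replicate block, 5262 against vehicle and 3313 to 4503 without each library. Genes under about 1 CPM have few counts, and their differences are the least certain.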

Other observations

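Within sets 10 and 11, ZBED6 was under 1 CPM in 6 libraries: Longan high replicate 3 (0.533), Longan medium replicate 3 (0.561), Zizyphi medium replicate 2 (0.342), Zizyphi low replicate 2 (0.639), Aucklandiae Radix medium (0.82) and Aucklandiae Radix low (0.807). In the other libraries of these sets, Longan replicate 1 of the high and medium dose apart, it was 2.06 to 6.21 CPM.

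Longan low replicate 3 differed from the other libraries in other ways. RN7SL1 was 92.7 CPM there, against 14.6 and 12.6 CPM in Longan low replicates 1 and 2, and NEAT1 was 1222 CPM, against 568.1 and 530.4 CPM. FAT1 was 81.9 CPM, against 268.3 and 272.1 CPM. Its mitochondrial mRNA share was 6.39%, below the 11.2% to 13.5% of the rest of set 10, whereas the share in Longan high and medium replicates 2 and 3 was 11.3% to 15.1%.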
